A study of Mus musculus with 11 samples.

Results

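The receptors through which CD4 T cells sense inflammatory cytokines were examined here at the level of open chromatin. The 9 genes were Il6ra, Il6st, Il27ra, Ifngr1, Ifngr2, Il12rb2, Il18r1, Il1r1 and Il10ra. Every peak of accessibility that the authors' table assigns to one of these genes was taken. No further filter on its value was set, which gave 72 of 45508 peaks. Each of the 9 genes had at least 1 peak, from 27 at Il6st and 13 at Il6ra to 3 at Il10ra, 2 at Il27ra and 1 at Il1r1. Assignment follows distance alone, so a peak may regulate another gene.

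The assay was ATAC-seq, where Tn5 transposase inserts sequencing adapters into open DNA, applied to naive CD4 T cells of 3 untreated mice. All mice were C57/BL6 and carried the transgene Tg(Nr4a1-EGFP)GY139Gsat, which makes green fluorescent protein under control of Nr4a1 (Nur77) sequences and reports recent T cell receptor signalling. They also carried the targeted mutation Foxp3tm1Flv, which marks cells expressing Foxp3 in red, so that no group lacks either allele. The ages of the mice are not given in the sources used here. From spleen and lymph nodes, CD4+ cells with low CD44 and no red Foxp3 signal were divided into population D (Nur77-GFP high, Ly6C negative, n = 3), population C (Nur77-GFP intermediate, Ly6C negative, n = 3), population B (Nur77-GFP intermediate, Ly6C positive, n = 3) and population A (Nur77-GFP low, Ly6C positive, n = 2). The replicate number is the mouse, so that replicates 1, 2 and 3 of different populations come from the same animals, and population A has replicates 1 and 3. D and A differ in the reporter and in Ly6C together, and these cannot be told apart in that comparison. Each library is an average over 10000 sorted cells, in which more cells with an open site and a more open site in each cell cannot be told apart.

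IL-6 and IL-27 signal through receptors that share the chain gp130, encoded by Il6st. Interferon gamma binds a receptor of the chains Ifngr1 and Ifngr2, and IL-12 acts through Il12rb2 and a common partner to drive type 1 helper cells. Il18r1 and Il1r1 bind IL-18 and IL-1 and signal through Myd88, whereas Il10ra binds IL-10, which restrains inflammation. Naive CD4 T cells are known to express the receptors for IL-6, IL-27 and interferon gamma, and those for IL-12, IL-18 and IL-1 are known mainly from activated and effector cells.

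Values are in rppm, reads scaled by the authors to a common total, and the totals behind this scaling ranged from 2597176 to 36859229 reads in D, 5095885 to 35244031 in C, 8736371 to 25061501 in B and 9194084 to 9933354 in A. Population D replicate 1 was the shallowest library, where 10 rppm corresponded to 26.0 reads, and D replicate 3 the deepest, at 369 reads. Each of the 45508 listed peaks reached at least 1 rppm in at least 3 libraries. A site that reached this level only in the 2 libraries of A is therefore not listed. A site that reached it only in the 3 libraries of D can be. The counts of higher and lower peaks below carry this limit, for receptor peaks and for all peaks. The T cell markers Cd3e, Cd3d, Cd3g, Cd4 and Lck together summed to 459 to 498 rppm in D and 493 rppm in both libraries of A, and Trac had no listed peak. The B cell markers Cd79a and Cd79b together summed to 29.3 to 42.0 rppm in D and 37.5 to 43.6 in A, and Ms4a1, Pax5 and Blk had no listed peak. Of 7 myeloid and dendritic markers, 5 had peaks, summing to 68.5 to 84.0 rppm in D and 86.1 to 91.7 in A, with none at Csf1r and Lyz2. Of 6 CD8 T and NK cell markers, 5 had peaks, summing to 439 to 519 rppm in D and 491 to 505 in A, with none at Ncr1. The 4 regulatory T cell markers were higher in D, summing to 532 to 575 rppm in D, 421 to 464 in C, 417 to 436 in B and 424 to 448 in A. The test used below called 14 of their 37 peaks (37.8%) higher in D and 3 (8.1%) lower when set against A. Among all peaks 8.7% were higher and 3.74% lower. Ikzf2 (112 to 117 rppm in D, 56.0 to 65.3 in A) and Ctla4 (257 to 276 in D, 166 to 188 in A) carried the higher sum, while Il2ra stood at 155 to 185 rppm in D and 189 to 199 in A. The defining one, Foxp3, had 1 peak, at 3.85 to 5.67 rppm in D and 3.12 to 4.35 in A. The 5 markers of memory and effector cells, of which Cxcr3 had no peak, summed to 613 to 675 rppm in D and 574 to 603 in A. The part of these cells in the results below was not tested.

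Without a mouse term, limma called receptor peaks between D and A only beyond 1 kb of a start, most of them at Il6st. Of the 72 peaks, 10 were higher in D and 3 lower (limma, Benjamini-Hochberg adjusted over all 45508 peaks, threshold 0.05), and 59 were not called. Among all peaks 8.7% were higher and 3.74% lower, against 13.9% and 4.2% of the receptor peaks. The median log2 change was -0.04 over the receptor peaks and -0.04 over all peaks. Il6st held 7 of the 10 higher peaks, and Il6ra, Il12rb2 and Il1r1 1 each. The 3 lower peaks lay at Il6ra, Il6st and Il18r1, and Il27ra, Ifngr1, Ifngr2 and Il10ra had none called. With the mouse as a block in the model, 13 receptor peaks were higher and 8 lower, against 12.5% and 8.79% of all peaks. The 13 calls made without the block were kept and 8 were added, which made 18.1% of the receptor peaks higher and 11.1% lower. Without mouse 3, where the lone library of A was taken to vary as the other populations do, 1 receptor peak was called, and 11 were called when the mouse was also a block. The count of 13 was 7 without A replicate 1 and 6 without A replicate 3.

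**Figure D1:**
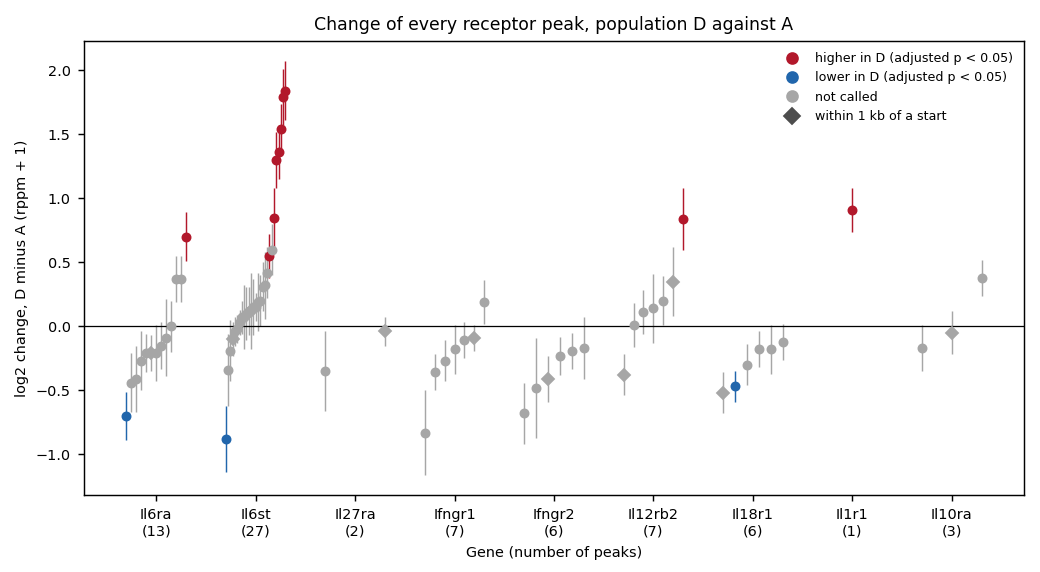
The log2 change of each of the 72 receptor peaks in population D against A, on the scale of rppm + 1, with its standard error, grouped by gene and sorted within it. Red and blue points passed the adjusted threshold as higher and lower, and diamonds lie within 1 kb of an annotated start. Il6st holds most of the red points, and no diamond is red or blue.

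The 13 peaks called without the block lay beyond 1 kb of a start. Among all peaks 8.7% were higher and 3.74% lower, so few calls would be expected among 10 start peaks. A preference for distal sites is therefore not shown. Of the 10 receptor peaks within 1 kb of a start (13.9% of receptor peaks, 26.8% of all peaks), limma called 0, 3 had an unadjusted p under 0.05, and edgeR and DESeq2 on recovered reads called 1 each, the Il18r1 start. With the mouse as a block 1 was higher and 2 were lower. The 10 higher peaks were weakly accessible in A, with a median of 2.40 rppm (0.691 to 7.58), and had a median of 6.46 rppm in D (3.88 to 14.7). The 59 uncalled peaks had a median of 13 rppm in A. The higher peaks were picked by their difference from A, so this contrast is partly set by the choice. Peaks under 1 rppm in both libraries of A are also listed only through other populations. Of the higher peaks 7 were intergenic and 3 intronic. D and A libraries did not overlap at 28 of the 72 receptor peaks (38.9%), the 13 called ones among them, against 37.3% of all peaks, so that separation of the libraries alone sets no receptor peak apart.

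At Il6st, which encodes gp130, the shared signalling chain of the IL-6 and IL-27 receptors, 7 of 27 peaks were higher in D, 1 was lower and 19 were not called. The gene spans chr13:112464070-112506860 (RefSeq, GRCm38.p6, the assembly of mm10), and its peaks spread from 78.8 kb upstream of the start to 46.8 kb downstream. The largest change on the log2 scale of rppm + 1 was at the far downstream peak, chr13:112510590-112511205, between Il6st and Il31ra. It had 14.2, 7.71 and 12.6 rppm in D, 6.28, 4.73 and 5.82 in C, 3.45, 4.58 and 3.43 in B, and 2.28 and 2.52 in A. The lowest D library exceeded the highest C library, and every library of D, C and B exceeded both of A. D was higher than A by 1.84 on the log2 scale (SE 0.23, limma adjusted p = 8.54e-05), a ratio of means of 4.79, below the ratios of 5.36 and 5.62 at the next 2 peaks.

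A pair of neighbouring peaks upstream, between Ankrd55 and Il6st, behaved alike. The one 67.3 kb upstream (chr13:112396487-112397003) had 7.70, 6.25 and 7.11 rppm in D, 1.57, 3.5 and 2.33 in C, 2.34, 1.83 and 2.08 in B, and 1.41 and 1.21 in A. The one 65.7 kb upstream (chr13:112398142-112398528) had 4.62, 3.49 and 3.53 rppm in D, 0.981, 1.54 and 1.45 in C, 0.891, 0.801 and 0.678 in B, and 0.979 and 0.403 in A. At both sites the D libraries stood above every other library. Every C library also stood above both A libraries, but at 65.7 kb upstream this was 0.981 in C replicate 1 against 0.979 rppm in A replicate 1, nearly equal. Outside D, the peak 65.7 kb upstream reached 1 rppm only in C replicates 2 and 3. It therefore met the level of 1 rppm in 3 libraries, shared by all listed peaks, only through D. The log2 changes of D against A were 1.79 (SE 0.22, limma adjusted p = 6.94e-05) and 1.54 (SE 0.20, adjusted p = 0.000118). A peak just 2.9 kb upstream of the start (chr13:112461083-112461249) had 4.24, 3.78 and 3.96 rppm in D, 1.96, 1.95 and 1.87 in C, 0.334, 1.03 and 1.28 in B, and 0.870 and 1.01 in A. Here the C libraries lay between those of D and those of B and A, with no overlap on either side, and D exceeded A by 1.36 on the log2 scale (SE 0.21, limma adjusted p = 0.000493).

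The remaining 3 higher peaks of Il6st fell outside the rule for named peaks and were chosen after their values were seen. The one 16.7 kb upstream had 3.85, 6.11 and 5.32 rppm in D, against 1.2 and 1.71 in A (log2 1.30, SE 0.22, limma adjusted p = 0.00134). The one in intron 8, 28.0 kb downstream, had 4.62, 4.36 and 6.32 rppm in D, 4.71, 2.98 and 5.59 in C, 5.12, 4.35 and 4.23 in B, and 1.96 and 2.82 in A (log2 0.85, SE 0.23, adjusted p = 0.0246). At this intronic peak D, C and B overlapped and all stood above A, the closest being C replicate 2 (2.98) and A replicate 3 (2.82). The peak 78.8 kb upstream had 5.00, 6.25 and 6.43 rppm in D, against 3.48 and 3.93 in A (log2 0.55, SE 0.17, adjusted p = 0.0477). In the opposite direction, the peak 57.2 kb upstream (chr13:112406424-112407229) had 1.54, 4.36 and 4.18 rppm in D, 4.91, 4.63 and 5.31 in C, 4.90, 5.72 and 5.75 in B, and 6.09 and 7.15 in A (log2 -0.88, SE 0.26, adjusted p = 0.0441). The low value of D replicate 1 there rested on 4 reads. The mouse block made 8 Il6st peaks higher, the added one 75.5 kb upstream, also chosen after its values were seen, with 8.09, 11.1 and 12.6 rppm in D, against 6.85 and 6.24 in A (adjusted p = 0.0371 with the block and 0.0708 without).

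The calls at 46.8 kb downstream and at 67.3, 65.7, 16.7 and 2.9 kb upstream were kept when any 1 of the 11 libraries was left out. Without mouse 3 the first of these was kept (log2 1.81, limma adjusted p = 0.0424), and the other four had log2 changes of 1.72, 1.34, 1.42 and 1.42 with adjusted p of 0.0514, 0.0687, 0.108 and 0.0686. The call in intron 8 was lost without D replicate 3 (log2 0.71, adjusted p = 0.0871), A replicate 1 (0.66, 0.26) or A replicate 3 (1.03, 0.0565). Those at 78.8 and 57.2 kb upstream were lost in 9 of 11 such fits each, with log2 changes of 0.48 to 0.64 and adjusted p up to 0.292 at the first, and -1.07 to -0.53 and up to 0.283 at the second. Without A replicate 1, A replicate 3, D replicate 2 or D replicate 3 the adjusted p at 78.8 kb upstream was 0.292, 0.146, 0.114 or 0.13, and without any of C replicates 2 and 3 or the B replicates it was 0.0546 to 0.0717. At 57.2 kb upstream it was 0.142 without A replicate 1, 0.283 without A replicate 3, 0.0508 without D replicate 1, and 0.0503 to 0.0647 without any 1 library of C or B.

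The strongly accessible sites of Il6st did not follow these changes. Its highest peak, 39.2 kb upstream (chr13:112424173-112425599), had 109, 98.5 and 97.2 rppm in D, 107, 94.3 and 89.4 in C, 105, 101 and 99.2 in B, and 109 and 96.8 in A. The groups overlapped throughout (log2 -0.02, SE 0.11, limma adjusted p = 0.947), and this sign turned under 5 alternatives. The start peak had 40.0, 54.7 and 43.7 rppm in D, against 46.2 and 51.9 in A (log2 -0.10, SE 0.13, adjusted p = 0.744), and its sign turned without mouse 3. The 19 uncalled peaks had log2 changes of -0.34 to 0.60. Summed over all 27 peaks, Il6st had 539 ± 21.6 rppm in D, 508 ± 14.8 in C, 510 ± 24.4 in B and 489 ± 2.64 in A (SD, n = 3, 3, 3 and 2).

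**Figure D2:**
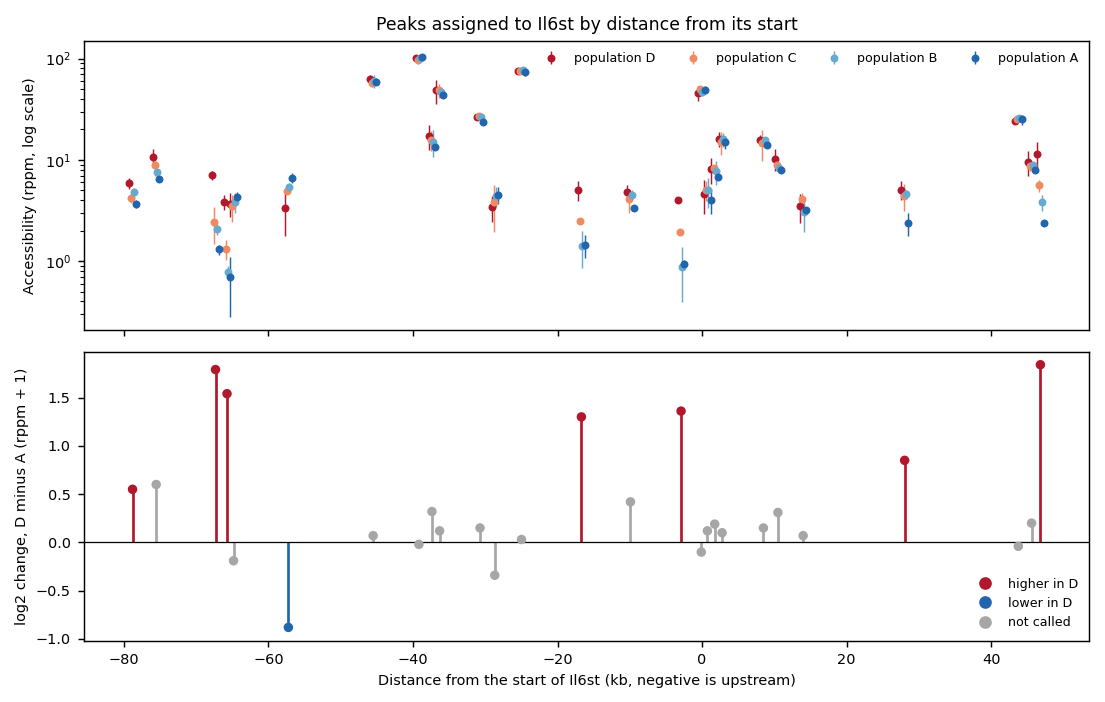
The 27 peaks assigned to Il6st by distance from its start, in kb. The upper panel gives the mean of each population in rppm on a log axis with its SD (n = 3 for D, C and B, n = 2 for A), drawn side by side at each peak, and the lower panel the log2 change of D against A. The peaks that rose most are low ones, while the strongest peak, 39.2 kb upstream, sits on the zero line at -0.02.

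Il6ra, on chr3:89869324-89913196, encodes the chain that binds IL-6 and then recruits gp130. Its 13 peaks all lie within or at the start of the gene, and 1 was higher and 1 lower in D. The higher one, in intron 1 (chr3:89892421-89893033), had 9.63, 10.3 and 10.5 rppm in D, 6.28, 6.58 and 7.35 in C, 4.68, 8.01 and 7.58 in B, and 6.09 and 5.64 in A. D stood above all other libraries, and B overlapped both C and A (D against A, log2 0.70, SE 0.19, limma adjusted p = 0.027). The lower one, in intron 7 (chr3:89877980-89878215), had 1.54, 1.75 and 2.96 rppm in D, 3.73, 3.19 and 3.32 in C, 3.12, 3.09 and 3.27 in B, and 4.13 and 3.73 in A (log2 -0.70, SE 0.19, adjusted p = 0.0281). All D libraries lay below the rest here, and D replicate 1 rested on 4 reads.

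Both Il6ra calls depended on single libraries. The higher peak had a limma adjusted p of 0.0618 without D replicate 2, 0.0703 without D replicate 3, 0.118 without A replicate 1 and 0.19 without A replicate 3, with log2 changes of 0.65 to 0.75. The lower peak had 0.0647 without D replicate 1, 0.082 without D replicate 2, 0.204 without A replicate 1 and 0.117 without A replicate 3, with log2 changes of -0.90 to -0.58 over all such fits, and neither edgeR (0.0987) nor DESeq2 (0.226) called it. The peak with the highest mean, 40.8 kb downstream of the start, had 57.4, 30.2 and 35.1 rppm in D, 69.5, 43.9 and 48.0 in C, 59.9, 48.9 and 50.4 in B, and 56.6 and 50.9 in A. Mouse 1 was the highest of each population at this site, and D and A overlapped (log2 -0.44, SE 0.23, limma adjusted p = 0.294, and 0.0137 without D replicate 1). The start peak had 38.9, 50.5 and 46.4 rppm in D, against 49.9 and 54.3 in A (log2 -0.21, SE 0.14, adjusted p = 0.422). Over its 11 uncalled peaks the log2 changes ranged from -0.44 to 0.37.

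Il27ra, which encodes the chain that binds IL-27 and pairs with gp130, had 2 peaks and limma called 0 of them, with 0 at an unadjusted p under 0.05 and 0 called by edgeR or DESeq2. Its start peak (chr8:84042062-84043087), which also overlaps the neighbouring gene Rln3, had 38.5, 39.7 and 39.1 rppm in D, 36.1, 34.7 and 40.7 in C, 42.4, 38.3 and 41.6 in B, and 42.6 and 38.0 in A. All 4 populations overlapped (log2 -0.04, SE 0.11, limma adjusted p = 0.882), and the sign turned under quantile normalization and without A replicate 1. The other peak, in intron 6, averaged 8.12 rppm in D and 10.0 in A (log2 -0.35, adjusted p = 0.578).

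The interferon gamma receptor is made of Ifngr1, which binds the cytokine, and Ifngr2, which is needed for signalling. Of the 7 peaks of Ifngr1 limma called 0, with 2 at an unadjusted p under 0.05 and 0 called by edgeR or DESeq2. Its start peak (chr10:19591295-19592589) had 81.2, 71.0 and 68.4 rppm in D, 74.2, 72.6 and 70.7 in C, 75.8, 78.2 and 72.7 in B, and 79.1 and 77.2 in A, and was one of the 2 strongest start peaks of the set. The libraries of D spanned those of A (log2 -0.09, SE 0.10, limma adjusted p = 0.67). With the mouse as a block, 1 peak was lower, 19.5 kb upstream of the start, chosen here after its values were seen. It had 0.385, 2.33 and 2.39 rppm in D, against 3.59 and 3.32 in A (log2 -0.96 with the block, adjusted p = 0.0158), and the value of D replicate 1 was a single read.

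Ifngr2 (chr16:91547059-91564007) had 6 peaks, with log2 changes from -0.68 to -0.17 for D against A, and limma called 0 of them, with 2 at an unadjusted p under 0.05 and 0 called by edgeR or DESeq2. With the mouse as a block, 3 of the 6 were lower. The start peak (chr16:91545462-91547865) had 49.3, 69.1 and 75.1 rppm in D, 64.2, 84.2 and 92.9 in C, 80.6, 91.1 and 96.6 in B, and 79.2 and 90.4 in A. All 3 D libraries stood below both A libraries, and in populations D, C and B alike mouse 1 was lowest and mouse 3 highest. The change was -0.41 (SE 0.18, limma adjusted p = 0.186) without the block and -0.45 (adjusted p = 0.00327) with it. Within mouse 1 it was -0.67 and within mouse 3 -0.26.

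The other two lower peaks under the block were chosen after their values were seen. The peak 8.6 kb upstream (chr16:91538033-91539027) had 15, 31.6 and 33.6 rppm in D, 40.6, 43.2 and 45.9 in C, 39.4, 43.2 and 47.4 in B, and 42.9 and 39.3 in A. D lay below every other library there, lowest in D replicate 1, and C, B and A overlapped (log2 -0.68, SE 0.24, limma adjusted p = 0.0933, against 0.0111 with the block). The peak 1.1 kb downstream averaged 6.22 ± 2.35 rppm in D and 8.75 ± 1.15 in A (adjusted p = 0.05 with the block, rounded up, and 0.531 without). Summed over its 6 peaks, Ifngr2 had 104, 152 and 166 rppm in D, 150, 187 and 205 in C, 169, 193 and 211 in B, and 177 and 191 in A.

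The sequences before the starts of the genes whose start peaks frame these results are shown, Ifngr2 and Il18r1 for the lowest changes, and Ifngr1 and Il6st as strong start peaks with small changes. They come from RefSeq (GRCm38.p6), plus strand in all 4, 5′ to 3′, and end at the base before the start. Capitals mark GGAAA, the core that NFAT proteins bind, on either strand (TTTCC on the strand shown).
Ifngr2: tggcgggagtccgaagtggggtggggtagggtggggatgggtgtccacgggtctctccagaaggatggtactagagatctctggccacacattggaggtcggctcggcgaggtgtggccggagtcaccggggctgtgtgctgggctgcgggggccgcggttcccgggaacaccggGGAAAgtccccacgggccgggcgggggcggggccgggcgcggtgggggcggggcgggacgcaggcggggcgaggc
Il18r1: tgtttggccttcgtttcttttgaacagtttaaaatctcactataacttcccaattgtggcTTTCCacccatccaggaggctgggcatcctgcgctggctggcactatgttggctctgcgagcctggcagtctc
Ifngr1: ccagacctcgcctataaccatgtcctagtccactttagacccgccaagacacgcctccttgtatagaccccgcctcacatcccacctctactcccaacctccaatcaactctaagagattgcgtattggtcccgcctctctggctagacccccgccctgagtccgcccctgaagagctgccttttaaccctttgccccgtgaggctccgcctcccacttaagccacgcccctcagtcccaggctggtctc
Il6st: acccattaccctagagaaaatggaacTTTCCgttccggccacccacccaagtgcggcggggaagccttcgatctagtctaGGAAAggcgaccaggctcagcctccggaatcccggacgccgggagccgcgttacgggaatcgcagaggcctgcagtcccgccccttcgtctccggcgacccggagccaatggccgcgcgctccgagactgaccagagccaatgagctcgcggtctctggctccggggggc
The spans are chr16:91546809-91547058, chr1:40465419-40465551, chr10:19591699-19591948 and chr13:112463820-112464069. That of Il18r1 begins where the neighbouring gene Il1rl1 ends. GGAAA occurred once at Ifngr2, 75 bases before the start, once at Il18r1, 73 bases before, 0 times at Ifngr1 and at 224 and 170 bases before the start of Il6st. It occurred in 55.6% of 32851 promoters over the same 250 bases, so a match of this short core is common. The motifs TGANTCA (AP-1), AAAGGTCA (Nr4a), TTCNNNGAA (Stat), CTTTGA (Tcf and Lef) and TGTGGT (Runx), searched on both strands, were in 6.7%, 1.3%, 7.0%, 13.8% and 14.0% of promoters and in none of the 4 sequences. Il18r1 has further annotated starts under the same start peak, whose sequences are not shown. In the region chr1:40465756-40466005 before the last of them, the Stat motif lay 219 and 152 bases before the start. Over 250 bases the GC content was 74.0% at Ifngr2, 66.0% at Il6st, 59.2% at Ifngr1 and 40.8% at Il18r1, against a median of 52.4% over all promoters.

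**Figure D3:**
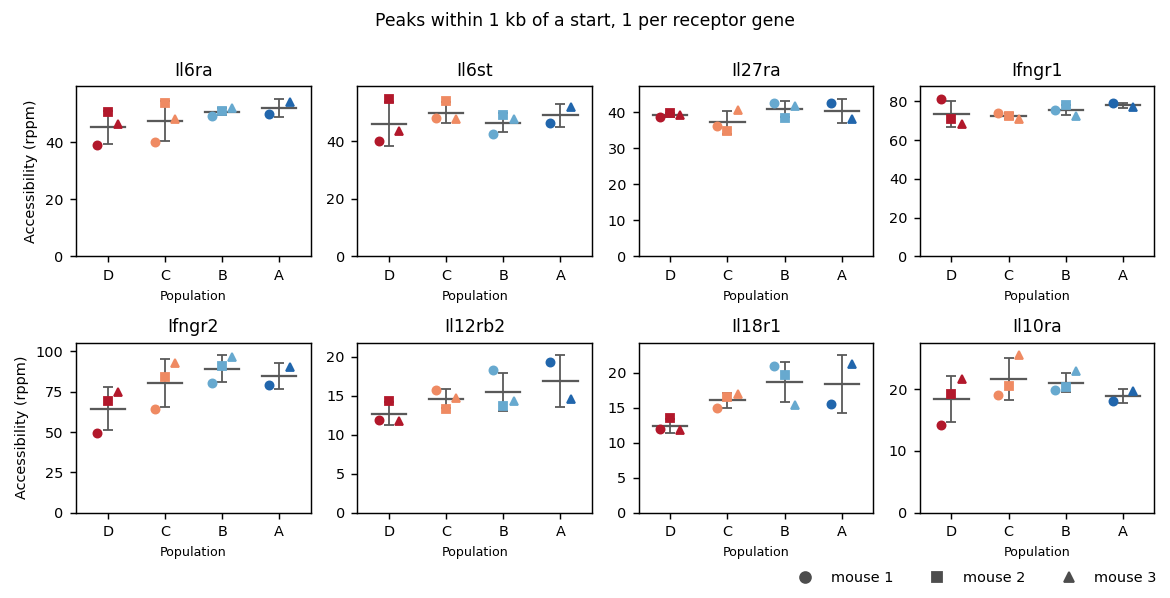
Accessibility in rppm of the strongest peak within 1 kb of a start for 8 receptor genes, per library, with the mean and SD of each population (n = 3 for D, C and B, n = 2 for A); symbols give the mouse. Il1r1 had no peak within 1 kb of a start. At Ifngr2 the order of mice repeats in D, C and B, from 49.3 rppm in D replicate 1 upward, and at Il18r1 all 3 D libraries lie below both A libraries.

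Il12rb2, which encodes the inducible chain of the IL-12 receptor, had 7 peaks, and 1 was higher in D. This peak (chr6:67399452-67400213) lies 23.6 kb upstream of the gene, between Il12rb2 and Il23r, another cytokine receptor gene. It had 19.6, 13.2 and 11.3 rppm in D, 13, 7.30 and 9.59 in C, 9.58, 6.98 and 6.82 in B, and 7.61 and 7.55 in A. D exceeded A in each mouse with both libraries, by 1.26 in mouse 1 and 0.53 in mouse 3, while D and C overlapped (D against A, log2 0.84, SE 0.24, limma adjusted p = 0.036). The call was lost without D replicate 1 (log2 0.63, adjusted p = 0.0777), D replicate 2 (0.89, 0.0536), C replicate 3 (0.84, 0.0507), B replicate 2 (0.84, 0.0514), A replicate 1 (0.84, 0.178) or A replicate 3 (0.83, 0.187).

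The strongest peak of Il12rb2 (chr6:67347763-67348613) had 52.8, 27.8 and 29.4 rppm in D, 46.7, 28.2 and 26.3 in C, 36.0, 26.2 and 24.7 in B, and 33.5 and 29.9 in A. Mouse 1 was highest in all 4 populations, and the change of 0.14 (SE 0.27, limma adjusted p = 0.822) was -0.14 without D replicate 1. The peak at the start had 11.9, 14.4 and 11.8 rppm in D, against 19.3 and 14.6 in A (log2 -0.38, SE 0.16, adjusted p = 0.174). D and A did not overlap there, although D replicate 2 and A replicate 3 lay side by side. A second start within the gene had a peak that was higher in D with the mouse as a block, chosen after its values were seen (15.4, 7.56 and 10.2 rppm in D, 8.38 and 7.85 in A, adjusted p = 0.0325 with the block and 0.5 without).

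Il18r1, which binds IL-18, had 6 peaks with log2 changes from -0.52 to -0.12, and 1 was called lower. This was its strongest peak, in intron 4 (chr1:40475480-40476207), with 27.3, 32.6 and 33.8 rppm in D, 41.8, 42.8 and 39.4 in C, 43.4, 49.6 and 44.0 in B, and 45.7 and 41.3 in A. The D libraries lay below all others and C, B and A lay close together (D against A, log2 -0.47, SE 0.12, limma adjusted p = 0.0164). The call was lost without A replicate 1 (log2 -0.40, adjusted p = 0.188) or A replicate 3 (-0.54, 0.0602). At the start (chr1:40465415-40466142) the values were 11.9, 13.5 and 11.8 rppm in D, 14.9, 16.6 and 16.9 in C, 21.0, 19.7 and 15.4 in B, and 15.6 and 21.3 in A. D again lay below every other library (log2 -0.52, SE 0.16, limma adjusted p = 0.0513, and 0.0138 with the mouse as a block). Summed over its 6 peaks, Il18r1 had 92.0, 92.8 and 95.5 rppm in D, 111, 110 and 105 in C, 120, 129 and 113 in B, and 120 and 117 in A, with no overlap of D with the rest.

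Il1r1, the signalling receptor of IL-1, had a single listed peak, which was higher in D. It lies in intron 1, 4.7 kb downstream of an annotated start (chr1:40270911-40271609), and the gene spans chr1:40222480-40316201. It had 6.16, 8.0 and 8.03 rppm in D, 7.46, 6.68 and 6.10 in C, 4.79, 5.04 and 4.11 in B, and 3.70 and 3.22 in A. D and C overlapped and both stood above B, which in turn stood above A. The difference between D and A was 0.91 on the log2 scale (SE 0.17, limma adjusted p = 0.00247), a ratio of means of 2.14, kept when any 1 library was left out, although not without mouse 3 (log2 0.77, adjusted p = 0.279). On the log2 scale D minus C was 0.11 (SE 0.15, limma adjusted p = 0.831), C minus B 0.46 and B minus A 0.34, none of them called.

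Il10ra, the chain that binds IL-10, had 3 peaks and limma called 0, with 1 at an unadjusted p under 0.05 and 0 called by edgeR or DESeq2. The strongest, 22.8 kb upstream (chr9:45291618-45292342), had 24.3, 22.3 and 24.6 rppm in D, 20.4, 17.6 and 23.2 in C, 18.4, 20.3 and 23.4 in B, and 16.9 and 19.2 in A. D exceeded A without overlap, and overlapped C and B (log2 0.38, SE 0.14, limma adjusted p = 0.113, and 0.0111 with the mouse as a block). The start peak had 14.2, 19.3 and 21.6 rppm in D, against 18.1 and 19.7 in A (log2 -0.05, SE 0.17, adjusted p = 0.899), and its sign turned under 4 alternatives.

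**Figure D4:**
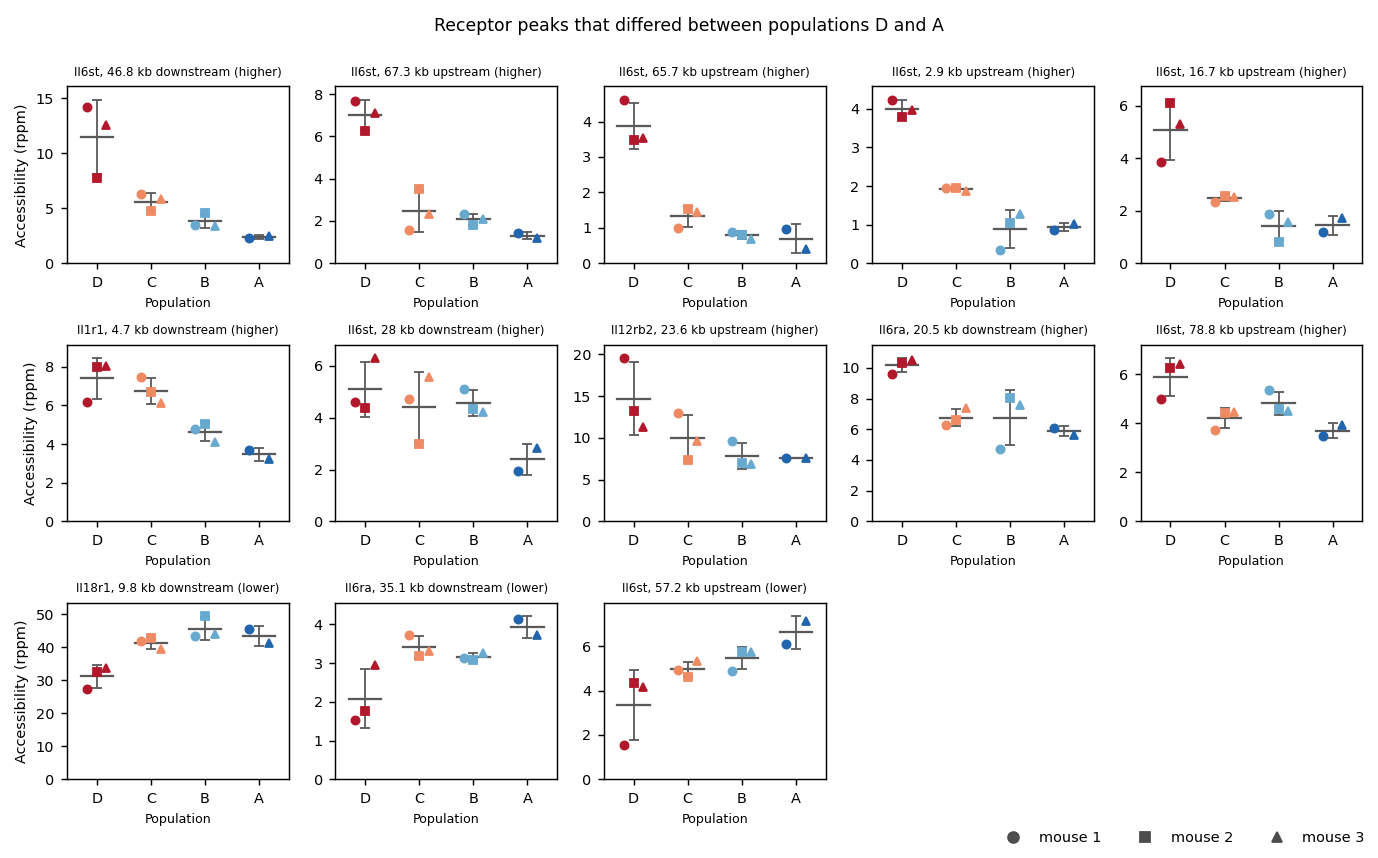
Accessibility in rppm per library at the 13 receptor peaks called between populations D and A, with the mean and SD of each population (n = 3 for D, C and B, n = 2 for A); symbols give the mouse and each panel has its own axis from 0. The first 10 panels are the higher peaks and the last 3 the lower ones. At the Il6st peak 46.8 kb downstream and at that 67.3 kb upstream the means are ordered D, C, B, A, and every D library, at 7.71 and 6.25 rppm and more, stands above all others.

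The populations were also compared stepwise. D against C sets high against intermediate reporter among Ly6C negative cells, and 5 of 72 receptor peaks (6.9%) were higher and 1 (1.4%) lower, against 4.51% and 1.49% of all peaks. All 5 were Il6st peaks, those at 67.3 kb upstream (log2 1.24, SE 0.19, limma adjusted p = 0.00135), 65.7 kb upstream (1.07, 0.18, 0.0021), 46.8 kb downstream (0.89, 0.20, 0.0183), 2.9 kb upstream (0.77, 0.19, 0.0252) and 16.7 kb upstream (0.79, 0.20, 0.0333). The lower peak was that in intron 4 of Il18r1 (log2 -0.40, SE 0.10, adjusted p = 0.0395). With the mouse as a block, 7 were higher and 4 lower, against 6.82% and 4.53% of all peaks. The block added the higher peaks of Il6ra in intron 1 (adjusted p = 0.0326) and Il12rb2 (0.0269), and as lower ones the Ifngr2 start (0.0201), the Ifngr2 peak 8.6 kb upstream (0.00618) and the strongest Il6ra peak (0.0161). Leaving out C replicate 1, 2 or 3 reduced the count of 6 to 3, 2 or 2, and without mouse 3 limma called 0 and, with the block, 5.

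Between the other neighbouring populations limma called none of the 72 receptor peaks. C against B differs in Ly6C at an intermediate reporter. It gave 0 calls against 0.0022% of all peaks, with 4 at an unadjusted p under 0.05, 0 called by edgeR or DESeq2 and a lowest adjusted p of 0.47. B against A, intermediate against low reporter among Ly6C positive cells, gave 0 calls against 0% of all peaks, with 3 at an unadjusted p under 0.05. Here edgeR called 0, and DESeq2 called 0 of the 53 receptor peaks to which it gave an adjusted p. Whether the D minus C step differed from the B minus A step was tested directly, and this too gave 0 receptor calls against 0.631% of all peaks, with 8 at an unadjusted p under 0.05, 0 called by edgeR or DESeq2 and a lowest adjusted p of 0.167. The 2 reporter steps were therefore not shown to differ at any receptor peak, including the Il6st peaks called in the one and not in the other. These contrasts share libraries, and the mouse block gave 0 receptor calls in all of them.

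Peaks of other genes in the same pathways were counted between D and A with the same test. The 10 ligand genes had 22 peaks at 8 genes (none at Ebi3 and Il18), of which 7 were higher (31.8%, against 8.7% of all peaks) and 0 lower, with a median log2 change of 0.09. The called ligand peaks lay at Ifng, Il10, Il1b and Il6. The leading one at Ifng, which encodes interferon gamma itself, lies 19.4 kb from its start and had 13.5, 11.6 and 11.9 rppm in D, against 1.09 and 1.31 in A (log2 2.60, SE 0.16, limma adjusted p = 4.81e-07). The one at Il1b, which encodes IL-1 beta, had 13.5, 8.14 and 9.17 rppm in D, against 0.435 and 0.201 in A (log2 3.07, SE 0.21, adjusted p = 1.19e-06). D and A did not overlap at either site, and C averaged 3.65 and 0.935 rppm there. Outside D, the Il1b peak reached 1 rppm only in C replicate 1 (1.18 rppm). It therefore met the level of 1 rppm in 3 libraries, shared by all listed peaks, only through D.

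Partner chains and decoy receptors had 22 peaks at 8 of 10 genes (none at Lifr and Osmr), of which 2 were higher and 1 lower, with a median of 0.05. These shares, 9.1% and 4.5%, are near the 8.7% and 3.74% of all peaks. The higher ones were at Il10rb, the second chain of the IL-10 receptor, with 16.6, 15.4 and 18.3 rppm in D, against 6.85 and 5.24 in A (log2 1.34, SE 0.21, limma adjusted p = 0.000588), and at Il1r2, a decoy receptor for IL-1, with 5.00, 5.96 and 5.18 rppm in D, against 0.544 and 0.503 in A (log2 2.06, SE 0.18, adjusted p = 4.69e-06). Outside D, the Il1r2 peak reached 1 rppm only in C replicates 2 and 3 (1.65 and 1.11 rppm), so it too was listed only through D. Of 53 peaks of transcription factors that these cytokines induce or need, 7 were higher (13.2%) and 4 lower (7.5%), with a median of -0.12, led by Bcl6 at 19.3, 12.1 and 15.1 rppm in D, against 2.61 and 1.51 in A (log2 2.43, adjusted p = 6.51e-06). With the mouse as a block the counts of higher and lower peaks were 8 and 2 for ligands, 3 and 1 for partners and 8 and 7 for the factors, where 12.5% of all peaks were higher and 8.79% lower.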

How the data were processed

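ATAC-seq libraries of 4 sorted populations were compared at the peaks of a deposited table on the mm10 build. The deposited values are RPM (rppm per the file headers), scaled to a total that is not stated. Bowtie and MACS2 are named, with no version, in the submitters' processing notes, and filters, peak merging and pooling of libraries are not given in the sources used here. In every library 100% of values were whole multiples of 1 step (within 6e-04 rppm), which gave the value of 1 read and whole reads. The step came from the spacing of values in every library. The lowest listed value was 1 read in 8 libraries and several reads in 3. A separate check built on the lowest value accepted whole reads in 7 of the 11. In the others, read numbers, edgeR and DESeq2 rest on the spacing without the support of that check.

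All 45508 peaks were tested in R 4.3.3 by limma 3.58.1, which modelled log2(rppm + 1) with a mean per population, a variance trend, 11 libraries in 1 model and no mouse term. Tests were two-sided with Benjamini-Hochberg adjustment over all peaks and a threshold of 0.05. The log2 scale of rppm + 1 understates ratios at low peaks. The fit was tested on simulated data. Values are means ± SD. In this fit p-values rest on the spread between libraries within populations, where each library is a different mouse. Libraries of the same mouse in different populations are treated as independent. With the mouse as a block, p-values rest on the spread left after differences between mice are removed.

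Replicate numbers are mice per the labels, so they pair the libraries. Deviations from population means correlated at 0.183 to 0.556 in 15 same-mouse pairs and -0.433 to 0.203 in 30 pairs of different mice, and the mouse was added as a block in an alternative. Other alternatives were pseudocounts of 0.25 and 5, a minimum mean of 5 rppm, 2 other scalings, 2 populations only, edgeR 4.0.16 and DESeq2 1.42.0 on recovered reads, and leaving out libraries.

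Peaks were named where called between D and A (at most 4 per gene and direction), and where strongest at a start or at the gene. The members, lists and tests were chosen with earlier results of these data known. Motifs were searched in RefSeq promoters, matched for 7 of 9 genes, since peak sequences were not used here. Some background genes and the counts that include them are not reported here.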

Additional observations from a re-analysis of the deposited data

How the results depend on the processing

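Leaving out single libraries, mouse 3 or the shared model changed how many of the 72 receptor peaks passed the threshold between D and A, but no named peak that was called changed direction under any alternative run. Against 13 calls, there were 4 under a minimum mean of 5 rppm (55 receptor peaks tested, so fewer peaks), 21 with the mouse as a block (pairing by mouse), 7 with only D and A in the model, 1 without mouse 3 and 6 to 14 when 1 library was left out. Other pseudocounts, other scalings, edgeR and DESeq2 gave 11 to 14. For D against C, against 6 calls, there were 1 under that minimum, 11 with the block, 3 with only those populations, 0 without mouse 3 and 2 to 7 when 1 library was left out, with 4 to 9 under the others, where the 4 came with a pseudocount of 0.25 and the 9 with edgeR. Combining the block with leaving out mouse 3, an alternative chosen after seeing the data, gave 11 and 5. B against A, C against B and the difference between the reporter steps gave 0 under every alternative run.

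For the 22 named peaks, 410 of 479 alternative values kept direction and side of the threshold, 47 lost the call, 9 gained one and 13 turned sign, all of the last at uncalled peaks. The Il6st peak 39.2 kb upstream turned to 0.01 with quantile normalization, 0.01 with edgeR, 0.0 without D replicate 2, 0.01 without D replicate 3 and 0.06 without A replicate 1 (-0.10 to 0.06 over the libraries left out in turn). The Il6st start turned to 0.02 without mouse 3, and the Il27ra start to 0.03 with quantile normalization and 0.04 without A replicate 1 (-0.12 to 0.04). The strongest Il12rb2 peak turned to -0.14 without D replicate 1 (-0.14 to 0.31), and the Il10ra start to 0.06 with edgeR, 0.03 with DESeq2, 0.11 without D replicate 1 and 0.01 without A replicate 3 (-0.17 to 0.11). The causes were not tested. Depth limits low peaks most in D replicate 1, where the called peaks rested on 4 to 71 reads.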
